A study of Mus musculus with 24 samples.

Results

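The mitochondrial ribosomal protein genes described here are the 77 rows, of 16921 in the deposited tables, whose mouse symbol begins with Mrpl or Mrps followed by a digit. The rule used the symbol alone and gave 48 with Mrpl and 29 with Mrps symbols. The set itself was chosen with earlier results of these data known. By the known structure of the ribosome 50 of them belong to the large subunit, Mrps18a and Mrps30 included. The other 27 were counted with the small subunit. They include Mrps36, which is now known as a part of the oxoglutarate dehydrogenase complex. GENCODE M21 lists 78 such genes besides pseudogenes, and Mrpl53 was not analysed here. All 77 passed the filter on low counts, which left 15165 genes to test.

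Kidney cortex was taken at 22 months of age from male C57BL6/J mice fed a diet with 20% casein (normal protein, NP) or 5% casein (low protein, LP). The diets began at 3 months of age in all groups and were eaten ad libitum. FGF21 is a circulating hormone whose level is known to climb when protein is scarce, and the study asked what it contributes to the response of the old kidney to LP. Each of 4 groups held 6 libraries: wild type mice on NP (WT_NP), wild type mice on LP (WT_LP), FGF21 KO mice on NP (KO_NP) and FGF21 KO mice on LP (KO_LP). How the KO allele was made is not given in the sources used here, and Fgf21 was not analysed here, so the KO label was not checked against it. Replicate numbers are names only. The labels give each library its own sample name but no account of separate animals, so p-values measure the spread between these samples.

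The mitochondrial ribosome translates the few messenger RNAs encoded by mitochondrial DNA, which specify core subunits of the respiratory chain and the ATP synthase. Its ribosomal RNAs, mt-Rnr1 and mt-Rnr2, come from mitochondrial DNA, whereas every protein of it is encoded in the nucleus, made in the cytosol and imported. Many of these proteins descend from the bacterial ribosome and others were added in mitochondria. In the kidney, proximal tubule cells are rich in mitochondria, which power the reabsorption of filtered solutes.

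Library totals ran from 8.47 to 21.1 M counts (median 14.96 M), and the members took 0.350 to 0.400% of them. Markers of the proximal tubule were high in all 24 libraries, with a summed level of at least 7090 CPM (counts scaled to a library size common to all libraries). The mitochondrially encoded share of counts was 25.3% ± 1.97 (SD, n = 6) in WT_NP, 25.9% ± 1.23 in WT_LP, 28.1% ± 1.54 in KO_NP and 23.1% ± 2.66 in KO_LP. It was lower on LP in KO by a difference of -4.95 points (two-sided exact permutation p = 0.00216, adjusted p = 0.00433 over 2 tests), and the difference in wild type was 0.530 points (exact permutation p = 0.623, adjusted p = 0.623). Immune marker genes summed to 13490 CPM in WT_NP 1 and 16110 CPM in KO_LP 5, and to 1482 to 6490 CPM in the other 22 libraries. KO_LP 6 had the highest summed adipocyte markers, 438.7 CPM, against 58.9 to 174.1 CPM in the others.

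The libraries tag the 3′ end of each transcript, so CPM values were not corrected for length. Differences between genes in how their tags are captured and assigned were not corrected either, so levels of different genes compare only roughly. Member levels had a median of 46.2 CPM over the 24 libraries, against 12.9 CPM for all genes tested. Of the 77, 68 had a mean from 10 to 100 CPM, 5 were lower and 4 were at 100 CPM or more, and the highest mean was 328 times the lowest. The proteins are present in single copies in the ribosome, with the stalk protein Mrpl12 as the known exception. Mrpl12, which also binds the mitochondrial RNA polymerase, had the highest level, 181.1 CPM. Mrpl34, a small protein of the large subunit with a bacterial counterpart, followed at 180.1 CPM, then Mrps6 of the small subunit at 163.8 CPM, Mrpl42 at 109.0 CPM and Mrpl18 of the central protuberance at 92.7 CPM. The lowest were Mrps18b at 0.552 CPM, Mrpl23 at 0.979 CPM and Mrps36 at 2.38 CPM. Mrps36 has since been recognised as a part of the oxoglutarate dehydrogenase complex.

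Low members rest on few reads and some loci share them. Mrpl23 averaged 14.3 reads per library and its pseudogene Mrpl23-ps1 averaged 9.96, so the division of reads between them is uncertain. Pseudogenes of Mrpl48 and Mrps36 averaged 4.12 and 6.46 reads. Of the members, 41 overlap another annotated gene, and the use of strand in counting is not given in the sources used here. Mrps6 lies on the same strand as Slc5a3, Mrps24 as Urgcp and Mrps34 as Nme3, while Mrpl21 overlaps Ighmbp2 and Mrps25 overlaps Nr2c2 on the opposite strand, so reads of these pairs may be mixed.

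The members' spread between libraries was low at the median. Their biological coefficient of variation (the spread beyond counting error) had a median of 11.4%, against 16.1% for all genes tested. Within groups the median coefficient of variation of CPM was 10.4% in WT_NP, 9.29% in WT_LP, 9.83% in KO_NP and 14.1% in KO_LP. The most even member within a group was Mrpl40 in WT_LP, at 2.63%.

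In wild type kidney no member was called higher or lower on LP. With edgeR's quasi-likelihood test and Benjamini-Hochberg adjustment over all genes tested, 0 of 77 were called at an adjusted p under 0.05, where 0.0% of all genes tested were called in either direction. At an unadjusted p under 0.05 there were 0 members against 3.82% of all genes, and DESeq2 and limma voom also called 0 members. On simulated data for this comparison 1.5-fold changes were called in 42% of changed genes, drawn from all genes tested, so small changes could go uncalled. The share for genes with the higher level and lower spread of the members was not simulated. The members' median log2 fold was -0.01, that of all genes -0.01, and 44 of 77 lay below 0 against 52.5% of all genes. The summed level of the members was 3918 ± 284 CPM (SD, n = 6) in WT_NP and 3876 ± 247 CPM in WT_LP.

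The 3 members with the smallest p in that comparison belonged to both subunits. Mrpl16, a core protein beside the transfer RNA sites of the large subunit, had 61.0, 67.7 and 72.6 CPM in WT_NP (lowest, median and highest library) and 50.2, 59.0 and 71.5 CPM in WT_LP. The groups overlapped, and its log2 fold was -0.16 (SE 0.0869, edgeR adjusted p = 1.0). Mrpl9, a large subunit protein with a bacterial counterpart, had 11.8, 13.4 and 17.3 CPM in WT_NP and 12.9, 17.5 and 19.1 CPM in WT_LP, with a log2 fold of 0.23 (SE 0.149, edgeR adjusted p = 1.0). Mrps18c of the small subunit had 44.0, 49.7 and 52.5 CPM in WT_NP and 41.2, 44.9 and 50.5 CPM in WT_LP, with a log2 fold of -0.11 (SE 0.0768, edgeR adjusted p = 1.0). Libraries of both diets overlapped for each of these genes.

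In FGF21 KO kidney 10 members fell on LP and none rose. The 10 compare with 3.58% of all genes called lower and 3.59% called higher in this comparison. Of the 77 members, 73 had a log2 fold below 0, against 45.1% of all genes, and the median was -0.18 against 0.03 for all genes tested. The members' folds ran from -0.54 (Mrps18b, adjusted p = 0.322) to 0.13 (Mrpl52, adjusted p = 0.268), with quartiles of -0.25 and -0.12. At an unadjusted p under 0.05 there were 30 members, where 27.9% of all genes passed. The summed level of the members was 4016 ± 301 CPM in KO_NP and 3535 ± 390 CPM in KO_LP (SD, n = 6). Fewer cells of a type rich in these transcripts and less RNA per cell cannot be told apart in bulk tissue.

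**Figure D1:**
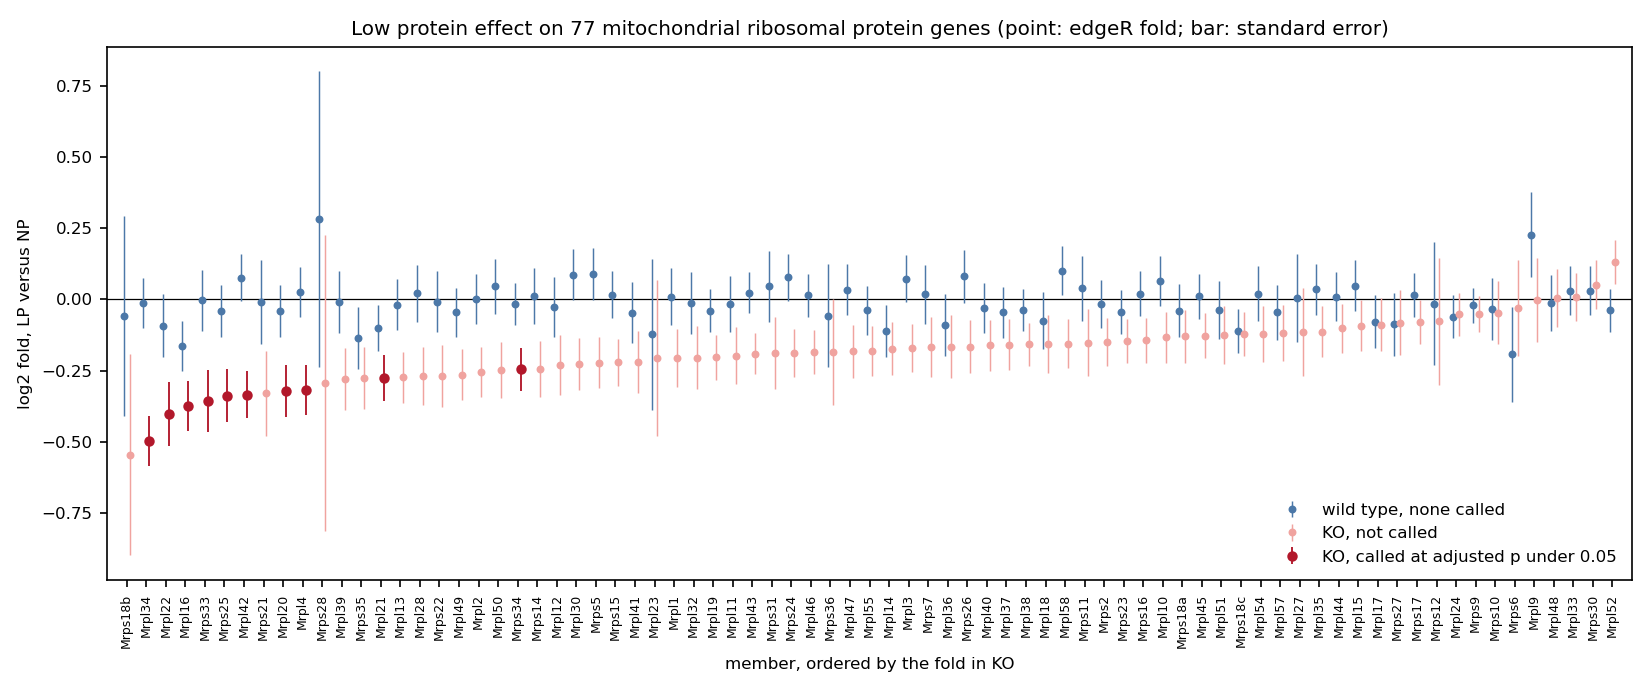
Log2 fold of LP against NP for each of the 77 members (horizontal axis, ordered by the fold in KO), with the standard error as bars, in wild type (blue) and KO (pale red, or dark red where called at an adjusted p under 0.05). The blue points scatter about 0, with a median of -0.01, while 73 of the 77 red points lie below 0, and the 10 called members are all lower in KO_LP.

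Of the large subunit 7 of 50 members fell in KO on LP and of the small subunit 3 of 27, with medians of -0.18 in both subunits. Each of the 27 members counted with the small subunit, Mrps36 included, had a fold below 0. Members with a bacterial counterpart gave 6 called of 46 and a median of -0.18, and those without one gave 4 of 31 and a median of -0.18. Within the large subunit the 5 proteins about the peptidyl transferase centre had a median of -0.25 with 2 called, the 7 at the polypeptide exit -0.13 with 1 called, the 6 of the central protuberance -0.16 with 0 called and the 3 of the stalk -0.20 with 0 called. The 8 proteins of the decoding region and body of the small subunit had a median of -0.16 with 0 called.

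Mrpl34 fell the furthest of the called members. It had 187, 197 and 214 CPM in KO_NP (lowest, median and highest library) and 121, 139 and 164 CPM in KO_LP. All 6 KO_LP libraries lay below all 6 KO_NP libraries, and also below the lowest wild type library on either diet, 165 CPM. Its log2 fold was -0.50 (SE 0.0877, edgeR adjusted p = 0.00730). Mrpl34 was called in each of the 24 fits that left out 1 library.

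Among proteins of the large subunit core, Mrpl16 had 68.8, 74.3 and 77.1 CPM in KO_NP and 49.1, 56.5 and 67.3 CPM in KO_LP. The groups did not overlap, and its log2 fold was -0.37 (SE 0.0874, edgeR adjusted p = 0.0234). Mrpl4 and Mrpl22 reach into the tunnel through which the new chain leaves, and were counted above with the peptidyl transferase centre and core and with the polypeptide exit, respectively. Mrpl4 had 57.0, 61.2 and 66.2 CPM in KO_NP and 38.5, 49.1 and 57.4 CPM in KO_LP, with a log2 fold of -0.32 (SE 0.0882, edgeR adjusted p = 0.0371). Mrpl22 had 16.1, 18.5 and 19.9 CPM in KO_NP and 10.4, 13.8 and 17.3 CPM in KO_LP, with a log2 fold of -0.40 (edgeR adjusted p = 0.0374). For both genes KO_LP 1 reached into the KO_NP range.

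Mrpl20 and Mrpl21 are proteins with bacterial counterparts that bind the ribosomal RNA of the large subunit. Mrpl20 had 88.0, 93.0 and 109 CPM in KO_NP and 61.3, 81.0 and 88.0 CPM in KO_LP, with a log2 fold of -0.32 (edgeR adjusted p = 0.0398). Mrpl21 had 38.9, 41.6 and 46.0 CPM in KO_NP and 29.1, 35.6 and 38.6 CPM in KO_LP, with a log2 fold of -0.27 (edgeR adjusted p = 0.0428). In both genes the groups came close without overlapping. Mrpl42, which has no bacterial counterpart, had 106, 121 and 131 CPM in KO_NP and 82.4, 92.3 and 107 CPM in KO_LP, with a log2 fold of -0.33 (SE 0.0838, edgeR adjusted p = 0.0256).

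The 3 called proteins of the small subunit, Mrps25, Mrps33 and Mrps34, were all added to the ribosome in mitochondria. Mrps25 had 37.7, 43.2 and 50.9 CPM in KO_NP and 27.8, 34.7 and 40.7 CPM in KO_LP, with a log2 fold of -0.34 (edgeR adjusted p = 0.0367). Mrps33 had 8.86, 10.4 and 12.1 CPM in KO_NP and 6.49, 8.67 and 9.08 CPM in KO_LP, with a log2 fold of -0.36 (edgeR adjusted p = 0.0492). Mrps34 had 35.9, 39.1 and 41.4 CPM in KO_NP and 27.1, 32.6 and 37.8 CPM in KO_LP, with a log2 fold of -0.25 (edgeR adjusted p = 0.0464). The libraries of both diets overlapped in all 3, although all 6 KO_LP libraries lay below the KO_NP mean in each. Mrps33 and Mrps34 were the nearest to the threshold, and Mrps33 lost its call in 19 of the 24 fits without 1 library and Mrps34 in 18.

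Members whose 6 KO_LP libraries all lay below the 6 KO_NP libraries numbered 5, where 2.06% of all genes had that arrangement. They were Mrpl34, Mrpl16, Mrpl20, Mrpl21 and Mrps5. Mrps5, a small subunit protein near the messenger RNA entry, was not called: it had 65.1, 66.8 and 70.8 CPM in KO_NP and 46.0, 61.7 and 64.7 CPM in KO_LP, with a log2 fold of -0.22 (edgeR adjusted p = 0.113). The 4 members with folds above 0 were Mrpl52 at 0.13, Mrps30 at 0.05, Mrpl33 at 0.0085 and Mrpl48 at 0.0046 (edgeR adjusted p from 0.268 to 0.984). Mrpl52 had 64.6, 82.9 and 85.9 CPM in KO_NP and 76.6, 85.0 and 99.8 CPM in KO_LP, so that its groups overlapped.

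**Figure D2:**
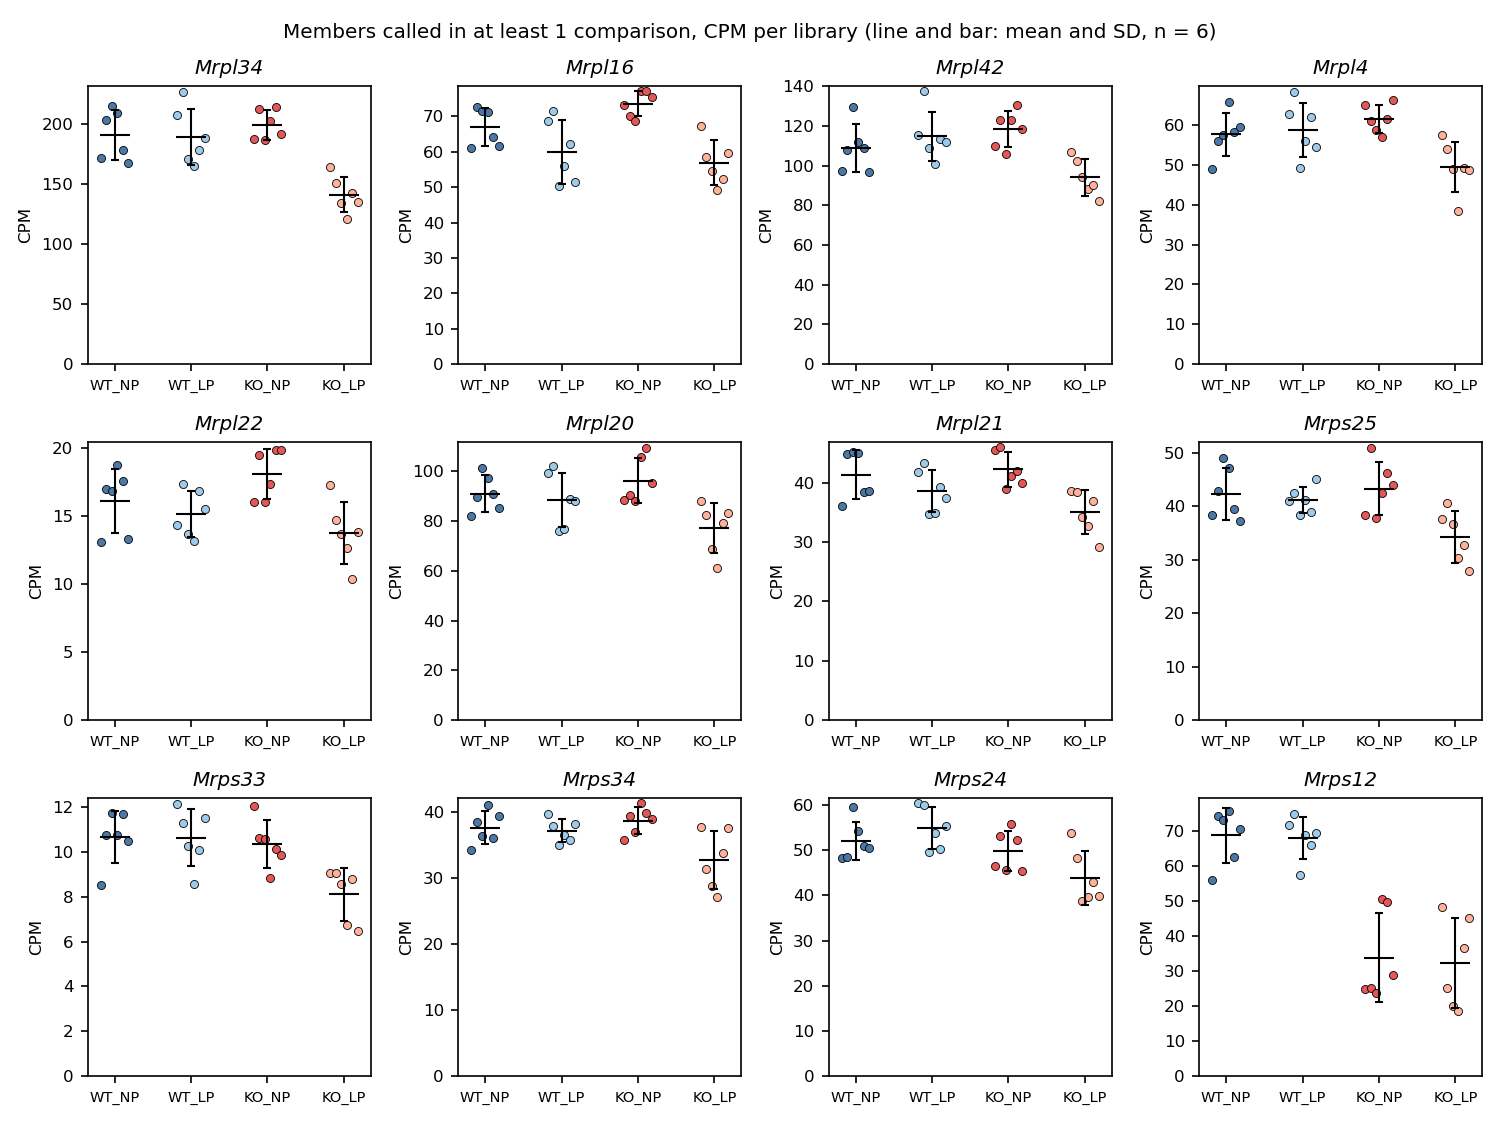
CPM in every library (points) of the 12 members called in at least 1 comparison, by group, with the mean and SD of 6 libraries as line and bar; each vertical axis starts at 0. Mrpl34 in KO_LP lies between 121 and 164 CPM, below all other libraries, while Mrps12 is lower in both KO groups, between 18.5 and 50.5 CPM.

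The count of 10 rested on individual libraries. It was 25 without KO_LP 1, 6 without KO_LP 3, 5 without KO_NP 1 or without KO_NP 2, 3 without KO_NP 6, KO_LP 5 or KO_LP 6, 2 without KO_NP 4 and 1 without KO_NP 5 or without KO_LP 4, Mrpl34 being called in every one. It was 0 without KO_LP 4 and KO_LP 6 together, where Mrpl34 had a log2 fold of -0.44 (edgeR adjusted p = 0.0754) and the members' median was -0.13. It was also 0 with 1 surrogate variable in the model, where the members' median was -0.02. Fitted on the 12 KO libraries alone, 5 members were called. The shares of all genes called in the fits without libraries are not given here. Whether such swings are particular to the members was not tested.

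The members' mean log2 CPM per library showed how evenly they were distributed. It was 5.33 ± 0.0899 (SD, n = 6) in KO_NP and 5.15 ± 0.144 in KO_LP, against 5.28 ± 0.101 in WT_NP and 5.28 ± 0.101 in WT_LP. KO_LP 1, at 5.39, lay inside the KO_NP range of 5.23 to 5.46, and the other KO_LP libraries ran from 4.97 (KO_LP 4) to 5.23 (KO_LP 2). KO_LP 4 had the lowest level of all 24 libraries in 29 members, KO_LP 6 in 14 and KO_LP 5 in 8. KO_NP 5 had the highest level in 20 members and KO_NP 4 and WT_LP 2 in 10 each. The TMM scaling factor, of which a larger value lowers CPM, was largest in KO_LP 4, 1.24, and smallest in KO_NP 5, 0.881. The next largest was 1.12, in WT_NP 1. As a share of counts from nuclear genes, the members made up 0.464% in KO_LP 4 and 0.462% in KO_LP 5.

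Other library measures also differed between KO_NP and KO_LP. Some libraries at the extremes of the members' mean were at the extremes of these too, and others were not. KO_LP 4 also had the lowest mitochondrially encoded share, 18.5%, and KO_NP 5 the highest, 30.5%. The mean log2 CPM of nuclear oxidative phosphorylation subunits was lowest in KO_LP 4 as well, 7.07, and highest in KO_NP 5, 7.755. Markers of the proximal tubule summed to 13600 to 16810 CPM in KO_NP and to 7090 to 13330 CPM in KO_LP, and KO_LP 6 and KO_LP 4 were the lowest at 7090 and 8263 CPM. KO_LP 3 had the highest sum in KO_LP, 13330 CPM, with a member mean of 5.10 log2 CPM, and KO_NP 1 the highest in KO_NP, 16810 CPM, with a member mean of 5.25, below the 5.42 of KO_NP 4 at 14540 CPM. In wild type, WT_NP 1 had the lowest sum and member mean of its group, 9489 CPM and 5.14. WT_LP 2 had the highest of both in its group, 19440 CPM and 5.41. At the other end of each of these groups the 2 measures picked different libraries. In KO on LP all 14 proximal tubule markers had folds below 0 and 2 were called lower, with a median of -0.32. Slc34a1, the main phosphate transporter of the proximal tubule, fell with a log2 fold of -0.68 (edgeR adjusted p = 0.0371). Immune markers summed to 2047 to 3614 CPM in KO_NP and to 2236 to 16110 CPM in KO_LP, with 5 of 17 tested called higher, 0 lower and a median of 0.997. None of the proximal tubule or immune markers was at 0. Endothelial markers had 0 of 6 called and a median of 0.07, and loop and distal tubule markers 0 of 10 and -0.18. Of the adipocyte markers 4 of 7 had rows and 1 was tested, and of 5 adrenal cortex markers 1 had a row, at 0.308 to 1.26 CPM, with neither called. The part of these cell type markers in the members' result was not tested.

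**Figure D3:**
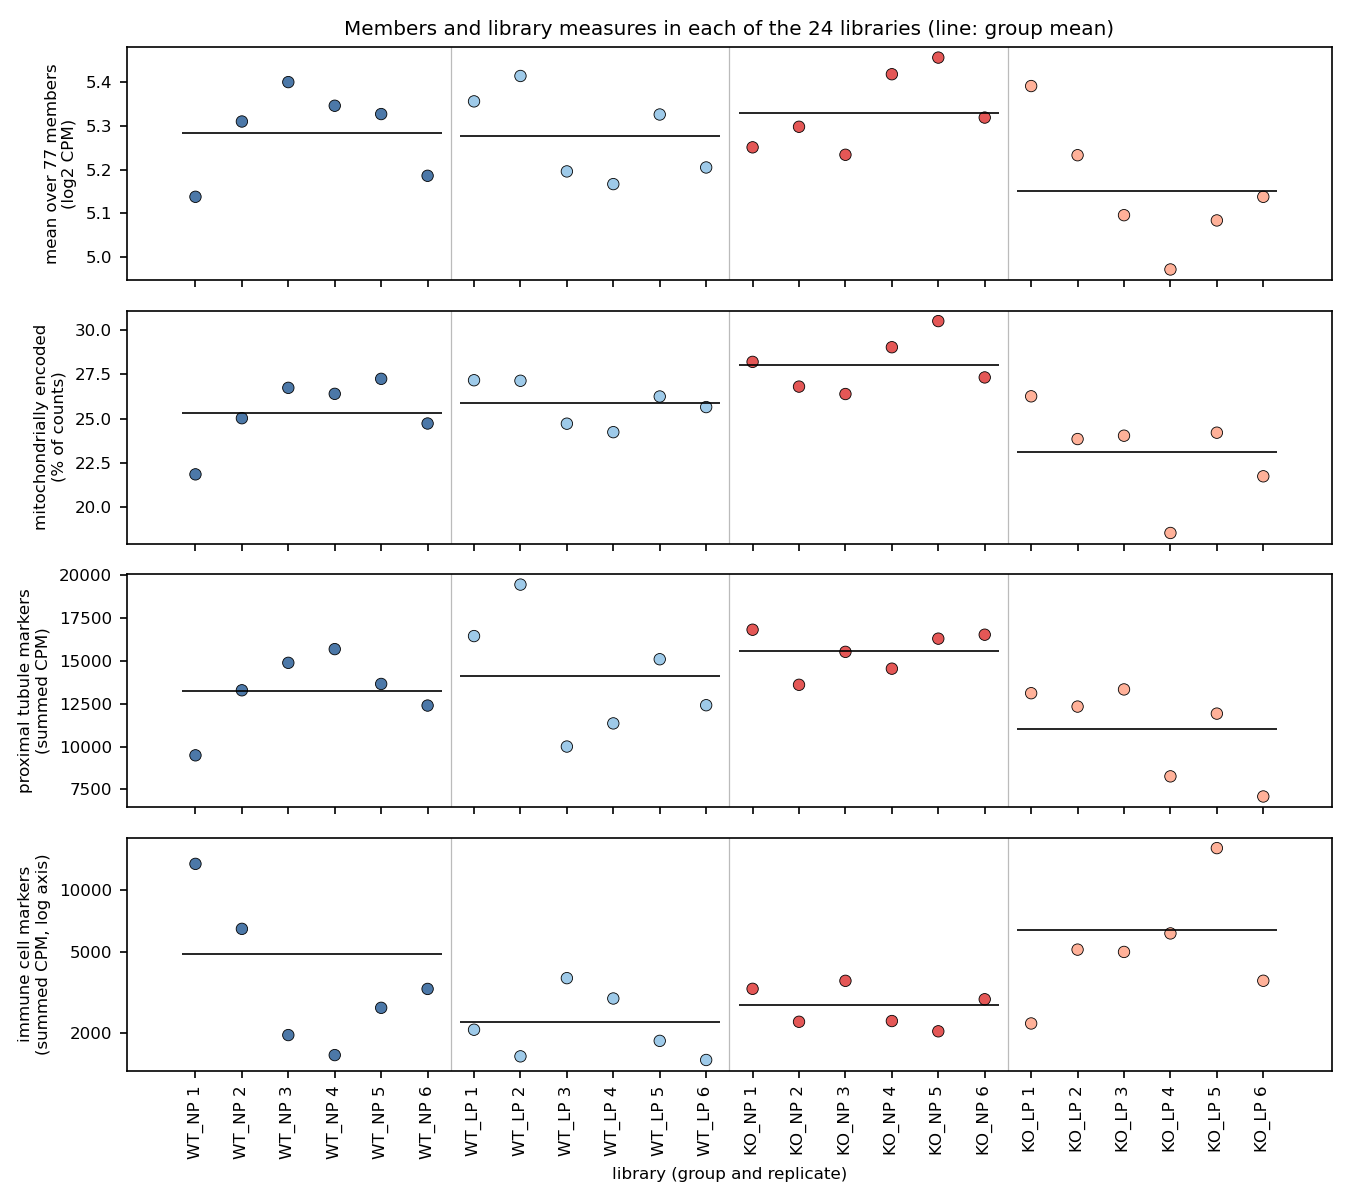
Each point is 1 of the 24 libraries, coloured by group with the group mean as a line: from the top, the mean log2 CPM of the 77 members, the mitochondrially encoded share of counts, and the summed CPM of proximal tubule and of immune markers (log axis). KO_LP 4 is lowest in the upper 2 panels, at 4.97 and 18.5%, and KO_LP 1 lies among the KO_NP libraries in the first, at 5.39.

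As a share of the counts from nuclear genes, the members made up 0.521% ± 0.0166 (SD, n = 6) in WT_NP, 0.524% ± 0.0061 in WT_LP, 0.524% ± 0.0332 in KO_NP and 0.488% ± 0.0342 in KO_LP. With library sizes and scaling taken from nuclear genes alone, the same 10 members were called in KO and the median stayed at -0.18. The share of all counts was 0.377% ± 0.0194 in KO_NP and 0.375% ± 0.0207 in KO_LP, with the mitochondrially encoded counts in the denominator.

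Promoter sequences of the members were taken from RefSeq on GRCm38.p6 in windows of 300 bases, 250 before the annotated start and 50 after it, and 68 of the 77 members matched. Motifs known from promoters of nuclear genes for mitochondrial proteins were counted on both strands. The palindromic NRF1 site stood in 4.05% of the members' windows against 0.971% of all windows, the ETS site CCGGAAGT (bound by GABPA) in 16.2% against 3.89%, and the YY1 site (AAGATGGCGGC in most members that held it) in 9.46% against 0.986%. Of the 12 members called in any comparison 10 had a window, and 0 of these held one of the 3 motifs. Of all 68 members with a window, 3 held the NRF1 site, 12 the ETS site and 7 the YY1 site. Mrpl27 and Mrps27 held both the ETS and the YY1 site. Whether called members differ from the rest in these motifs was not tested. The CCAAT box CCAAT stood in 39.2% of members' windows and 37.4% of all. A further motif, known to be bound by the factors ZNF143 and THAP11, was searched after the sequences had been seen. It begins ACTACA and ends TCCC with any 2 bases between, and it stood in 6.76% of the members' windows against 1.81% of all. Its 5 members were Mrpl24, Mrpl34, Mrpl42, Mrpl50 and Mrps22. Of these, Mrpl34 and Mrpl42 were called in at least 1 comparison, and Mrpl24, Mrpl50 and Mrps22 in none.

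The 250 bases before the starts of Mrpl34 and Mrpl42 are shown because these abundant members both fell in KO on LP and both hold the last motif, and those of Mrpl27, picked out after its values had been seen, because it holds an ETS site and was not called. They lie at chr8:71464676-71464925 (plus strand), chr10:95501950-95502199 (minus strand) and chr11:94653541-94653790 (plus strand), and the capitals mark the motif of ZNF143 and THAP11 in the first 2 and the ETS site in the last.
Mrpl34: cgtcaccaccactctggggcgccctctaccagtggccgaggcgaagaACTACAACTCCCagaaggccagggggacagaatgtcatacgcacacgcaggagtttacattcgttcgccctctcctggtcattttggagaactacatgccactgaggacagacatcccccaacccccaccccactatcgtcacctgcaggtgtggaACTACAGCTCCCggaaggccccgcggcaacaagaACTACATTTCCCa
Mrpl42: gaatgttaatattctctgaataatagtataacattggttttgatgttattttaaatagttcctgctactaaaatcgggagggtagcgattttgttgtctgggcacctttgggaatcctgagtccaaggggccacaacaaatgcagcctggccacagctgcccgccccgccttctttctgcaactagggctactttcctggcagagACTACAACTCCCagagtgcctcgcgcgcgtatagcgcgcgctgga
Mrpl27: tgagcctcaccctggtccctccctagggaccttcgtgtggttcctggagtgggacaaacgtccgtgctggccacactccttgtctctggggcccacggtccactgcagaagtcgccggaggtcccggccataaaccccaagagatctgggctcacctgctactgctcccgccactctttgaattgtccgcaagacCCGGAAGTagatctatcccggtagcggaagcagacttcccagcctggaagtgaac
Mrpl34 held the motif 3 times, as ACTACAACTCCC, ACTACAGCTCCC and ACTACATTTCCC, beginning 203, 47 and 13 bases before the start. Mrpl42 held it once, as ACTACAACTCCC, 45 bases before its start. The ETS site of Mrpl27 began 55 bases before its start. These matches describe letters in the windows and were not tested against the members' folds.

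No member passed the test of the difference between the LP effects in KO and in wild type. With edgeR 0 of 77 members were called, as were 0.0% of all genes, while at an unadjusted p under 0.05 there were 14 members against 16.0% of all genes. DESeq2 called 1 member, Mrpl34, and limma voom 0. The median of the difference, KO minus wild type, was -0.18 for the members and 0.03 for all genes, and 71 of 77 lay below 0 against 45.2% of all genes. With 1 surrogate variable in the fit the members' median of the difference was -0.010 and 42 of 77 lay below 0. Mrpl34 had a difference of -0.48 (SE 0.124, edgeR adjusted p = 0.158), Mrpl42 one of -0.41 (SE 0.118, adjusted p = 0.170) and Mrpl4 one of -0.34 (SE 0.124, adjusted p = 0.224). Mrpl34 averaged 191 ± 20.6 and 189 ± 23.3 CPM (SD, n = 6) in WT_NP and WT_LP, and 199 ± 12.4 and 141 ± 14.8 CPM in KO_NP and KO_LP. Mrpl42 averaged 109 ± 12.01, 115 ± 12.3, 118 ± 9.13 and 94.1 ± 9.20 CPM in the same order.

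On NP 1 member, Mrps12, was lower in KO than in wild type kidney and 0 were higher, of 77 tested, where 0.231% of all genes were called lower and 0.343% higher. The median was 0.06 against -0.02 for all genes, and 14 members lay below 0 against 54.2% of all genes. With 1 surrogate variable the members' median was -0.0055 and 40 lay below 0, and it was 0.04 without WT_NP 1, 0.03 without WT_NP 6 and 0.04 without KO_NP 5. In the same comparison all 17 immune markers tested had folds below 0, with a median of -0.42 and 0 called, and their part in the members' result was not tested. Mrps12 is the small subunit protein at the decoding centre, the counterpart of the bacterial protein at which streptomycin resistance arises. It had 56.0, 71.8 and 75.6 CPM in WT_NP and 23.6, 27.0 and 50.5 CPM in KO_NP. The groups did not overlap, as was the case, with KO lower, for 0.791% of all genes, and the log2 fold was -1.02 (SE 0.221, edgeR adjusted p = 0.0282). The call was lost on leaving out WT_NP 2, 3, 4 or 6 or KO_NP 1, 2, 3 or 6, with log2 folds from -1.17 to -0.93 over all 24 such fits.

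On LP 4 members were lower in KO than in wild type and 0 were higher, with 1.59% of all genes called lower and 1.35% higher. The median was -0.13 against 0.02 for all genes, and 61 members lay below 0 against 46.2% of all genes. With 1 surrogate variable the members' median was -0.0080 and 43 lay below 0, and without KO_LP 4 and KO_LP 6 together it was -0.06. This comparison shares KO_LP with the diet comparison in KO, so the values are not independent. Mrps12 had 57.2, 69.1 and 74.7 CPM in WT_LP and 18.5, 30.9 and 48.2 CPM in KO_LP, with a log2 fold of -1.08 (SE 0.222, edgeR adjusted p = 0.00961). Mrpl34 had 165, 183 and 226 CPM in WT_LP against 121, 139 and 164 CPM in KO_LP, with a log2 fold of -0.42 (SE 0.0875, edgeR adjusted p = 0.00940). In these 2 genes the groups did not overlap, as was the case, with KO lower, for 1.19% of all genes.

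The other 2 called members on LP belong to the small subunit. Mrps24, which sits at the messenger RNA entry, had 49.7, 54.6 and 60.5 CPM in WT_LP and 38.7, 41.5 and 53.9 CPM in KO_LP, with a log2 fold of -0.33 (SE 0.0837, edgeR adjusted p = 0.0342). Mrps33 had 8.57, 10.8 and 12.1 CPM in WT_LP and 6.49, 8.67 and 9.08 CPM in KO_LP, with a log2 fold of -0.39 (SE 0.109, edgeR adjusted p = 0.0484). The groups overlapped in both. The count of 4 became 8 without KO_LP 1 and 2 without WT_LP 1, WT_LP 2, WT_LP 6, KO_LP 3, KO_LP 4, KO_LP 5 or KO_LP 6, with Mrpl34 and Mrps12 called in all 24 fits. It was 1, Mrps12, without KO_LP 4 and KO_LP 6 together, 2 with 1 surrogate variable and 1 on the 12 compared libraries alone. Mrps33 lost its call in 17 of the 24 fits without 1 library and Mrps24 in 7. Under the 10 other alternatives Mrps33 lost it in 5 and Mrps24 in 3. The shares of all genes called in these fits are not given here. Proximal tubule markers summed to 10000 to 19440 CPM in WT_LP and to 7090 to 13330 CPM in KO_LP, and immune markers to 1482 to 3725 CPM and 2236 to 16110 CPM. Their part in the members' result was not tested.

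Mrps12 lies at chr7:28739641-28741820 on GRCm38, on the minus strand, 16.9 Mb from Fgf21 at chr7:45613886-45615490. It is transcribed away from Sars2, the mitochondrial seryl-tRNA synthetase, and the annotated starts are 172 bases apart. Sars2 averaged 4.28 ± 0.523 CPM (SD, n = 6) in WT_NP and 5.43 ± 0.993 CPM in KO_NP, a log2 fold of 0.34 (edgeR adjusted p = 0.288), and its log2 fold on LP was 0.19 (adjusted p = 0.440). Of the 9 tested genes within 100 kb, Mrps12 included, Hnrnpl was the other one called, on NP alone, with a log2 fold of -0.42 (edgeR adjusted p = 0.0179). It encodes a splicing factor.

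The stretch between the RefSeq starts of both genes, chr7:28741822-28741967, is shown on the Mrps12 strand because it lies between the divergent starts, with the CCAAT boxes in capitals.
Mrps12: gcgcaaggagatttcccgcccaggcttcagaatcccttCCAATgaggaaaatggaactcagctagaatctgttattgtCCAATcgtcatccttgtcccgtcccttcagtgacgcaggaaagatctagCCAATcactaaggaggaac
The boxes began 108, 68 and 19 bases before the Mrps12 start. The sequence is that of the reference and was not read from these mice.

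On chromosome 7 as a whole, which carries Fgf21, 39 of 1195 tested genes (3.26%) were called between KO and wild type on NP, against 48 of 13970 (0.344%) on the other chromosomes. On LP the shares were 71 of 1195 (5.94%) and 374 of 13970 (2.68%). The other 5 members on chromosome 7, Mrpl46, Mrps11, Mrpl48, Mrpl17 and Mrpl23, lie 33.2 to 96.9 Mb from Fgf21 and were not called on either diet. Whether sequence or alleles near Fgf21 differ between the KO and wild type mice was not analysed here.

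Among KO libraries Mrps12 ranged from 18.5 to 50.5 CPM. It had 50.5 and 49.8 CPM in KO_NP 4 and KO_NP 5 and from 23.6 to 28.9 CPM in the other 4 KO_NP libraries. It had 48.2, 45.0 and 36.7 CPM in KO_LP 1, KO_LP 6 and KO_LP 5, and 25.2, 19.9 and 18.5 CPM in KO_LP 2, KO_LP 3 and KO_LP 4. Every one of these was below the lowest wild type library, at 56.0 CPM. The 4 KO libraries with the highest Mrps12 were also the 4 highest for Mrps6, which had 194, 190, 175 and 209 CPM in KO_NP 4, KO_NP 5, KO_LP 1 and KO_LP 6 and from 105 to 148 CPM in the other 8. In wild type Mrps6 ranged from 127 to 224 CPM. Mrps6 was not called between KO and wild type (log2 fold -0.38 on NP, edgeR adjusted p = 0.336, and -0.22 on LP, adjusted p = 0.470). These libraries were picked out after their values had been seen, and no test was made between them.

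Mrps28 varied the most of all members, and was picked out after its values had been seen. It is a small subunit protein, and its biological coefficient of variation was 61.2%. Its level was 4.64, 13.6 and 17.4 CPM in WT_NP, 3.90, 16.3 and 22.9 CPM in WT_LP, 1.80, 22.6 and 29.0 CPM in KO_NP and 5.34, 14.8 and 27.4 CPM in KO_LP (lowest, median and highest library). The highest library was 16.1 times the lowest, whereas the median of that ratio over members was 1.61. Mrps28 was called in 0 comparisons, and its LP effect in KO was -0.29 (SE 0.518, edgeR adjusted p = 0.748). Mrpl27, a large subunit core protein, was lowest at 41.7 CPM in KO_NP 2 and highest at 96.9 CPM in KO_NP 5, the same 2 libraries as for Mrps28.

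**Figure D4:**
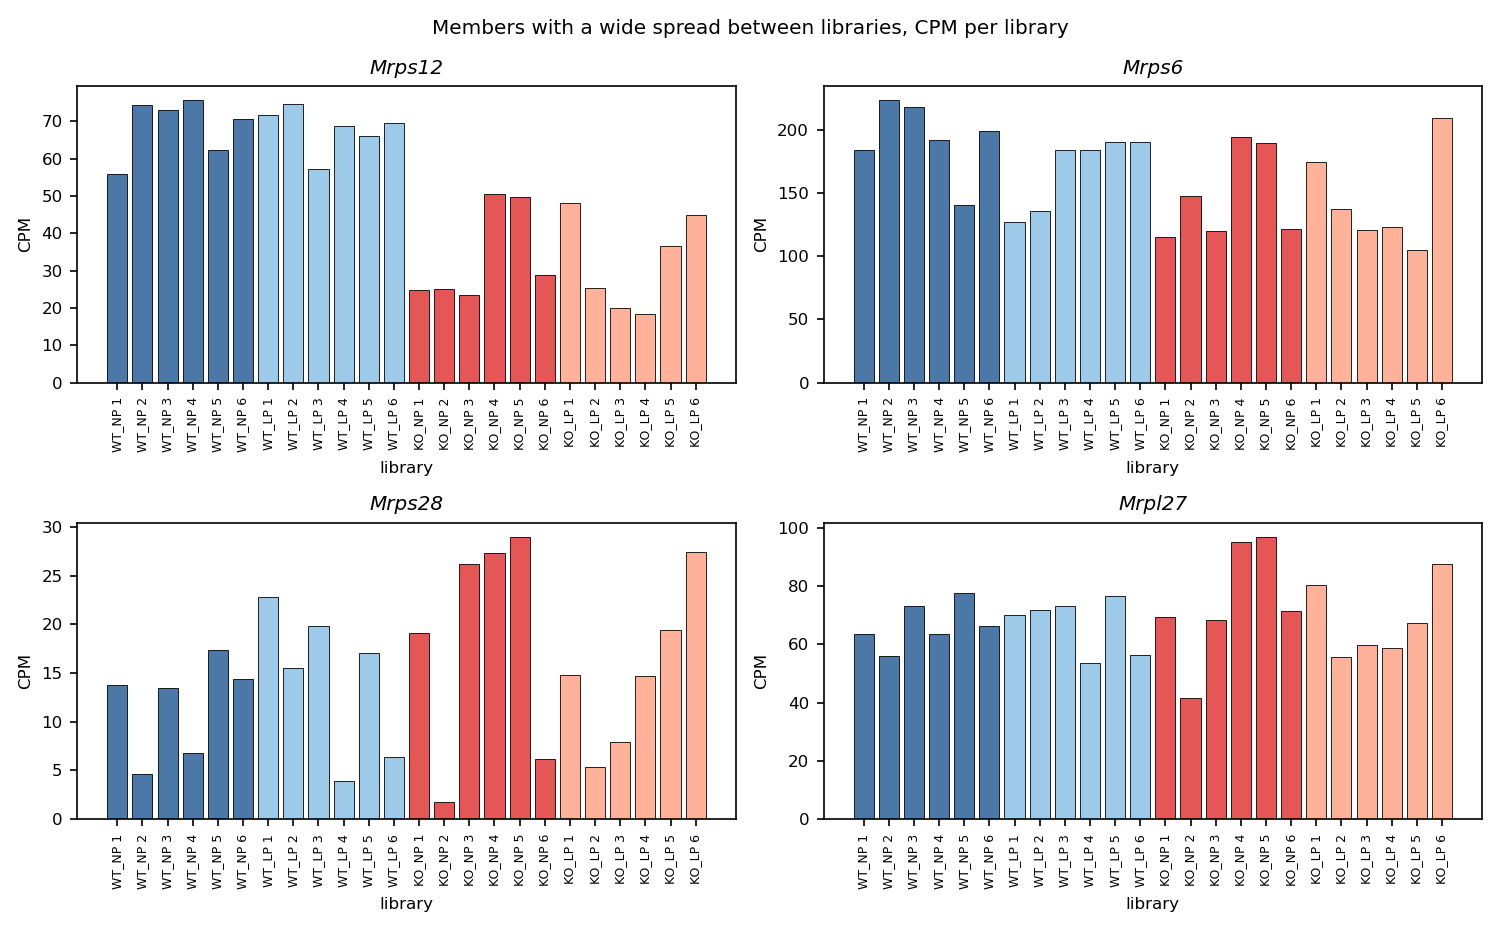
CPM in each of the 24 libraries (bars, coloured by group, axes from 0) for Mrps12, Mrps6, Mrps28 and Mrpl27. Mrps12 is at most 50.5 CPM in the KO libraries and at least 56.0 CPM in the wild type libraries, while Mrps28 runs from 1.80 to 29.0 CPM within KO_NP alone.

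Genes that work with the mitochondrial ribosome were counted in lists of their own. In KO on LP the 5 mitoribosomal proteins with other symbols had 0 called, 5 of 5 folds below 0 and a median of -0.17, and Dap3 of the small subunit had a log2 fold of -0.21 (edgeR adjusted p = 0.0737). Of 15 tested translation factors 1 fell, Guf1, an elongation factor that back-translocates the ribosome, at -0.30 (adjusted p = 0.0436), with a median of -0.25. Tufm, which delivers transfer RNAs to the ribosome, was at -0.38 (adjusted p = 0.0673). Of 25 assembly factors and ribosomal RNA enzymes 0 were called, with a median of -0.12 and 19 folds below 0. Gtpbp6, with the smallest p among them, was at 0.28 (adjusted p = 0.0981).

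Of 20 mitochondrial aminoacyl-tRNA synthetases and amidotransferase subunits, which charge the transfer RNAs, 5 fell in KO on LP and 20 of 20 folds lay below 0, with a median of -0.18. Aars2, for alanine, fell with a log2 fold of -0.44 (edgeR adjusted p = 0.0248), Gatb with -0.47 (adjusted p = 0.0391) and Rars2, for arginine, with -0.40 (adjusted p = 0.0393). Of 10 genes for transcription and replication of mitochondrial DNA 0 were called, with a median of -0.15, and Top1mt was at -0.27 (adjusted p = 0.0665). Of 10 tested mitochondrially encoded RNAs 3 fell, mt-Nd1, mt-Co1 and mt-Nd5, with log2 folds of -0.54, -0.51 and -0.48 (adjusted p = 0.0231, 0.0236 and 0.0474) and a list median of -0.47. The ribosomal RNAs mt-Rnr1 and mt-Rnr2 had log2 folds of -0.43 (adjusted p = 0.119) and -0.45 (adjusted p = 0.107).

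Import and matrix housekeeping genes had 2 called lower of 18, with a median of -0.23: Vdac1, the pore of the outer membrane, at -0.40 (edgeR adjusted p = 0.0255) and Phb at -0.33 (adjusted p = 0.0396). Of 9 transcription regulators of mitochondrial genes 2 fell, Esrra at -0.40 (adjusted p = 0.0374) and its coactivator Ppargc1a at -0.37 (adjusted p = 0.0428), and Nrf1 was at 0.25 (adjusted p = 0.0555). The median of these regulators was -0.05, and 4 of the 9 had folds above 0, up to 0.75. Nuclear subunits of oxidative phosphorylation had 25 called lower and 1 higher of 78, with a median of -0.32. Cox5b averaged 444 ± 35.4 CPM in KO_NP and 338 ± 39.02 CPM in KO_LP (SD, n = 6), a log2 fold of -0.39 (adjusted p = 0.0133). The median of the 77 members, -0.18, was thus nearer 0 than that of these subunits or of the mitochondrially encoded RNAs, a difference that was not tested.

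Cytosolic ribosomal protein genes, by contrast, had 4 called higher and 0 lower of 83 in KO on LP, with a median of 0.15. Rps24 averaged 655 ± 59.9 CPM in KO_NP and 825 ± 84.9 CPM in KO_LP (SD, n = 6), a log2 fold of 0.33 (edgeR adjusted p = 0.0323). On NP the cytosolic list had a median of -0.07 between KO and wild type and 0 called, and the members 0.06. On LP the cytosolic list had a median of 0.08 with 1 called lower, and the members -0.13. In wild type the LP medians of these mitochondrial and ribosomal lists lay between -0.03 and 0.03.

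**Figure D5:**
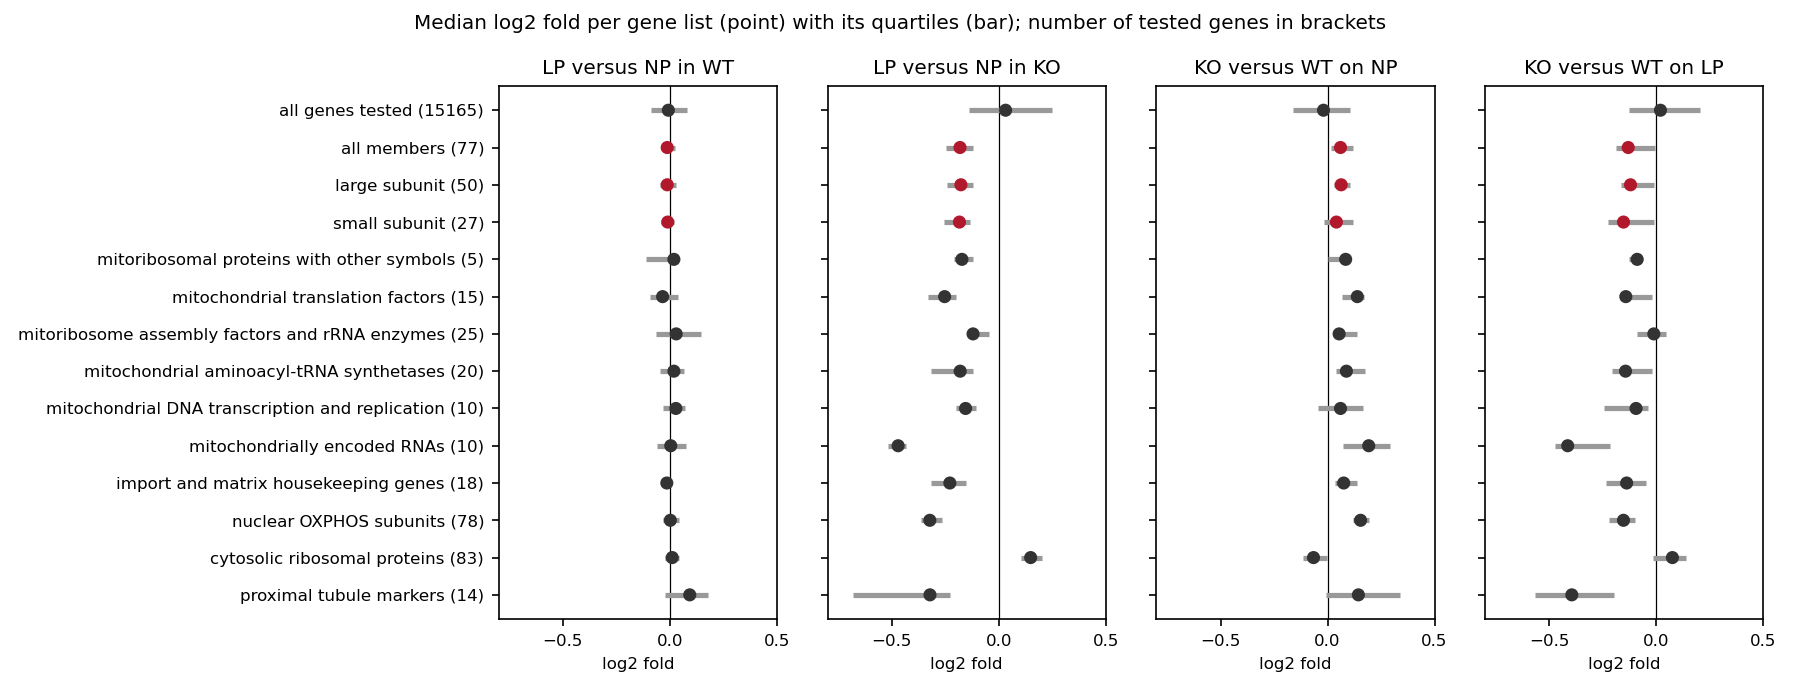
Median log2 fold (point) and quartiles (bar) of all genes tested, the members and their subunits (red) and related gene lists, in 4 comparisons, with the number of tested genes in brackets. The members' median is -0.01 for LP in WT and -0.18 for LP in KO, where the cytosolic ribosomal proteins are at 0.15 and the mitochondrially encoded RNAs at -0.47.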

How the data were processed

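Tags from the 3′ ends of transcripts (Lexogen QuantSeq) were counted in 24 kidney cortex libraries, 4 groups of 6. The authors deposited raw counts for each gene. They also deposited normalized values, a signal that is each count divided by the size factor of its library. Per the submitters' processing notes the build was GRCm38 and DESeq2 1.22.2 was used. The aligner and counter were not given in the sources used here.

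Raw counts were analysed with edgeR 4.0.16 in R 4.3.3, with TMM factors. Genes passing filterByExpr (15165, with 1756 below) entered 1 robust quasi-likelihood fit with 4 group means over all 24 libraries. The 5 contrasts were two-sided. A call needed a Benjamini-Hochberg adjusted p under 0.05 over all genes tested. CPM used TMM library sizes, and SE is the standard error of a fitted log2 fold.

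Alternatives were DESeq2 size factors, scaling on nuclear genes alone, no filter, a filter of 5 CPM in 6 libraries, only the compared libraries, limma 3.58.1 (voom with quality weights, and log2 of the normalized values plus 1), DESeq2 1.42.0, 1 surrogate variable (sva 3.50.0), leaving out each library, and leaving out KO_LP 4 and KO_LP 6 together. Leaving libraries out of the mitochondrial share was added after seeing the data.

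The members and gene lists were chosen with earlier results of these data known. Named members are all that were called, the 3 with the smallest p where none was called, and the 5 highest and 3 lowest. From each list up to 3 genes with the smallest p in KO are named. Other genes named complete a count of 5 or fewer, are neighbours of Mrps12 or the mitochondrial ribosomal RNAs, or were singled out after their values were seen.

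Every one of 60 replicate pairs differed by more than counting error (chi-square of 5.98 to 69.5 per degree of freedom). On simulated data for LP in KO (14996 genes), 2-fold changes were called in 75% of changed genes and 1.5-fold changes in 45%, with 5 unchanged genes called. The 200 changed genes were drawn at random from all genes tested and not from the members alone.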

Additional observations from a re-analysis of the deposited data

How the results depend on the processing

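No member was called for LP in wild type under any of 9 alternatives or 24 fits without 1 library. For LP in KO, 7 of 10 alternatives gave 9 to 13 called members, against 10. The count was 5 on the compared libraries alone, 0 with 1 surrogate variable, where 2 genes in all were called, 0 without both KO_LP 4 and KO_LP 6, and 1 to 25 without 1 library. Except for the surrogate variable, the calls among all genes in the same fits are not given beside these counts. The members' median for LP in KO was -0.23 to -0.14 without 1 library and -0.02 with the surrogate variable. With that variable the medians of the KO minus wild type difference in LP effect, of KO against wild type on NP and of the same on LP were -0.010, -0.0055 and -0.0080. In the test of that LP difference DESeq2 called 1 member against 0, and each fit without 1 library called 0. KO against wild type on NP gave 1 under all 9 alternatives and 0 to 1 without 1 library. On LP the 4 calls became 1 on the compared libraries alone, 2 with 1 surrogate variable, 1 without both KO_LP 4 and KO_LP 6, and 2 to 8 without 1 library. The mitochondrially encoded share differed by -5.58 to -4.04 points in KO without 1 library and by -0.17 to 0.91 points in wild type, where leaving out WT_NP 1 turned it to -0.17 (exact permutation p = 0.801). The cause of these changes was not tested. No paired analysis was possible because the labels give no replicate numbers shared across groups. Depth limits Mrps18b and Mrpl23, both under 1 CPM.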
